A study of Mus musculus with 2 samples.

Results

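The cells described here are 87 cells of the mid-gestation mouse embryo that carried RNA of both Barx1, a homeobox factor of the stomach wall, and Foxf1, a forkhead factor of splanchnic mesoderm. They were picked from 16572 cells of 2 single-cell RNA libraries of C57BL/6 embryos, 1 of stage E10.5 and 1 of stage E11.5 (E, embryonic day). Each library pooled the dorsal aorta, the tissue around it and the fetal liver, and no allele, treatment or number of embryos is named. A cell was kept with at least 2 UMIs of Barx1 (a UMI is 1 counted RNA molecule), at least 1 UMI of Foxf1, at most 1 UMI of Colec10, Colec11 and Reln together, and no UMI of Epcam or Pax1. These limits left out epithelium, sclerotome and cells rich in the 2 collectins and in reelin, which mark the precursors of hepatic stellate cells. At E10.5 the gate kept 45 of 7665 cells, and at E11.5 it kept 42 of 8907.

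Visceral mesenchyme is the layer of lateral plate mesoderm that wraps the gut tube and its outgrowths, and it gives rise to smooth muscle, connective tissue and the outer lining of these organs. Foxf1 is switched on in it by Hedgehog signals from the epithelium, Barx1 directs the stomach and helps the spleen to form, and Hlx is needed for growth of the gut and liver. The outer surface of the same mesoderm becomes mesothelium, a thin epithelium marked by uroplakins, keratins and Wt1. In the mouse GRCm38 assembly, Barx1 lies on chromosome 13 from 48662998 to 48666507, Foxf1 on chromosome 8 from 121084386 to 121088144 and Hlx on chromosome 1 from 184727140 to 184732619.

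Because each stage had 1 library, no spread between embryos could be estimated and no test was made. The stage of the embryo and the library it was made in cannot be told apart. Intervals are 95% intervals for counting error only. Levels are counts per 1000000 UMIs (CPM), with haemoglobin and mitochondrial genes left out of the total, and a level is compared only with the level of the same gene in other cells. The kept cells held medians of 16342 (E10.5) and 20233 (E11.5) UMIs, against 16967 and 14197 over all cells that passed the filter. Mitochondrial UMIs made up a median of 4.32% and 3.17% of the kept cells' UMIs. The libraries shared 37 barcodes, of which none was among the kept cells.

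Barx1-Foxf1 cells were rare in both libraries. They made up 0.587% of cells at E10.5 (exact Clopper-Pearson interval 0.429% to 0.785%) and 0.472% at E11.5 (0.340% to 0.637%). The share at E11.5 was 0.80 times that at E10.5, with an interval of 0.51 to 1.25. This order changed with depth and with the limit on collectins. When every cell was first thinned to 5000 UMIs, the gate kept 17 of 6852 E10.5 cells (0.248%) and 39 of 8189 E11.5 cells (0.476%), so the share was higher at E11.5 by 1.92 times (1.06 to 3.62). Without the limit on collectins and reelin the share was 0.744% at E10.5 and 1.85% at E11.5, or 2.49 times as high (1.83 to 3.43). No order of the stages is therefore read from the share.

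The limit on Colec10, Colec11 and Reln removed far more cells at the later stage. Of the cells with both Barx1 and Foxf1, it took away 17 of 83 in the E10.5 library and 133 of 182 in the other. Among cells that met every other condition, 12 (E10.5) and 123 (E11.5) had 2 or more of these UMIs, with medians of 2.5 and 11. Just inside the limit, 8 (E10.5) and 28 (E11.5) kept cells had exactly 1 such UMI, and just outside it 6 and 17 cells had 2. At the Barx1 threshold, 11 (E10.5) and 2 (E11.5) kept cells had exactly 2 UMIs, and 29 and 13 cells that met the rest had 1. For Foxf1, 9 and 8 kept cells had a single UMI, and 23 and 15 cells that met the rest had none.

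Barx1 and Foxf1 chose the cells, so their levels are a description. Barx1 stood at 519 CPM at E10.5 (470 to 571) and 922 CPM at E11.5 (858 to 990). A single cell held between 2 and 104 UMIs of it at E10.5 (median 4) and between 2 and 64 at E11.5 (median 13). Foxf1 stood at 240 CPM at E10.5 and 214 CPM at E11.5, with medians of 4 and 3 UMIs per cell and a highest value of 14. Without the 2 E10.5 cells that held most Barx1, with 104 and 60 UMIs, the Barx1 level at that stage was 349.7 CPM. Few endothelial-marker and Sox10 cells reached the Barx1 threshold, unlike the collectin-rich cells of E11.5 described above (123 cells). At E10.5 such collectin-rich cells were few as well (12 cells). At least 2 UMIs of Barx1 were present in 1.23% and 0.862% of cells with endothelial markers at E10.5 and E11.5, whose median depths were 24508 and 26282 UMIs. Among Sox10 cells, of the neural crest, the shares were 0% and 0.966%.

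**Figure D1:**
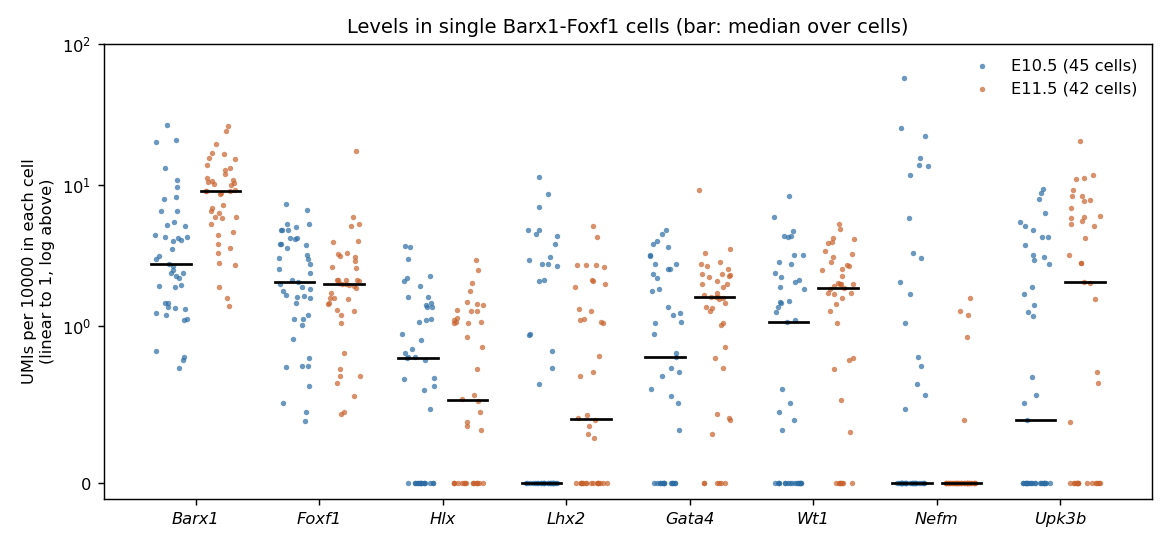
UMIs per 10000 in every single Barx1-Foxf1 cell for 8 genes, on an axis that is linear up to 1 and logarithmic above, with E10.5 cells in blue and E11.5 cells in orange. Black bars are medians over cells: Lhx2 and Nefm had medians of 0 at E10.5, where they were present in 20 and 18 of 45 cells.

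The remaining marker of the label, Hlx, was not used by the gate and was present. It stood at 91.9 CPM at E10.5 (72.1 to 115) and 70.7 CPM at E11.5 (53.7 to 91.3), against 14.2 and 22.2 CPM in all other cells. The gene was found in 29 of 45 and 26 of 42 cells, or 64.4% and 61.9%. In Sox10 cells, with median depths of 25119 and 24172 UMIs, the shares were 5.32% and 4.35%. In endothelial-marker cells they were 27.6% and 50.4%. Foxf1 cells without Barx1 (534 and 150 cells) held Hlx at 48.8 and 91.5 CPM, and Foxf1 cells rich in the collectins and reelin (120 and 188 cells) held it at 113 and 101 CPM. Hlx therefore lay above the summed other cells in both libraries, below the collectin-rich cells in both, and below the Foxf1 cells that lacked Barx1 at E11.5.

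Other factors of the gut wall went against the label. Nkx2-3 and Nkx2-5, homeobox factors of the gut and spleen mesenchyme, had 7 and 5 UMIs over all 45 cells at E10.5 and none at E11.5. Nkx3-2, of the hind stomach, had 2 UMIs at E10.5 and none at E11.5. Tlx1, of the spleen, and Tbx5, of the lung field and heart, had no UMI in either library, an upper limit of 3.72 and 3.65 CPM by the count of 3. Foxf2, the sister factor of Foxf1, had 3 UMIs and 1 UMI. The general mesenchyme factor Twist1 stood at 44.7 and 12.2 CPM, below the 239 and 157 CPM of all other cells. Prrx1, another such factor, stood at 7.45 and 9.74 CPM against 69.8 and 109 CPM. The cells are therefore called Barx1-Foxf1 cells here, after the gate.

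Of 32 fixed transcription factors of gut and splanchnic mesenchyme, 29 had at least 1 UMI in the E10.5 library and 26 in the other. Over both libraries 17 of them had at least 50 UMIs and were counted. Of these 17, 9 (E10.5) and 8 (E11.5) were at least 2-fold above all other cells with 5 CPM added to both levels, where 1.71% and 3.07% of all 4958 counted genes were. The gate used these same cells' counts, so nothing beyond a description is read from these numbers. The GATA factors of cardiac and visceral mesoderm were among them. Gata4 stood at 112 and 155 CPM against 19.5 and 22.8 CPM in other cells. Gata5 stood at 70.8 and 71.9 CPM against 10.6 and 7.98 CPM. Gata6 stood at 217 and 318 CPM against 66.9 and 109 CPM. Collectin-rich Foxf1 cells held these factors too, with Gata4 at 111 and 100 CPM, Gata5 at 74.0 and 43.3 CPM and Gata6 at 240 and 260 CPM.

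Isl1, a LIM factor of the stomach wall and of heart progenitors, stood at 222 CPM at E10.5 and 129 CPM at E11.5, against 51.1 and 32.3 CPM in other cells. Hand2, a factor of lateral plate mesoderm, stood at 129 and 183 CPM against 39.0 and 53.3 CPM. Wt1, of mesothelium, stood at 142 and 189 CPM against 90.4 and 132 CPM, which is less than 2-fold above. Broad mesenchymal factors such as Meis1 (155 and 113 CPM) and Nr2f1 (230 and 140 CPM) lay near the other cells' 157 and 158 CPM and 274 and 178 CPM. In collectin-rich cells Hand2 was higher than in the Barx1-Foxf1 cells, at 182 and 264 CPM, and Isl1 was lower, at 48.8 and 23.9 CPM.

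**Figure D2:**
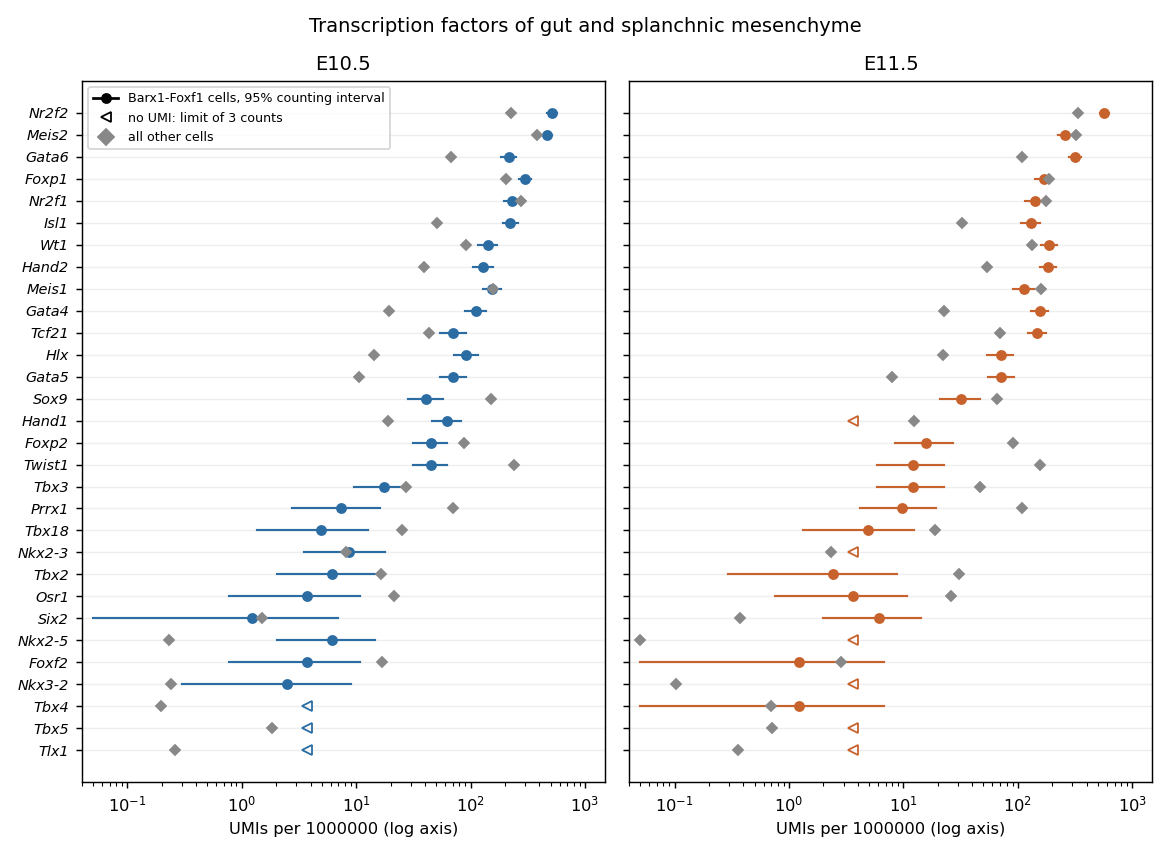
Level of 30 of the factors in Barx1-Foxf1 cells (circles, with 95% counting intervals) and in all other cells (grey diamonds), in CPM on a log axis, for E10.5 on the left and E11.5 on the right. Open triangles mark factors with no UMI at the limit of 3 counts (3.72 CPM at E10.5 and 3.65 CPM at E11.5). Gata4, Gata5, Gata6, Isl1 and Hand2 lie to the right of the diamonds, and Twist1 and Prrx1 to the left.

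The genes that stood furthest above the other cells were ranked by the lower of the libraries' ratios. Myl7, the atrial myosin light chain, led with 320 CPM at E10.5 and 496 CPM at E11.5 against 30.0 and 23.0 CPM. The LIM factor Lhx2, which in the fetal liver is known from stellate cells, came second with 140 CPM (116 to 169) and 108 CPM (87.1 to 133) against 11.8 and 7.37 CPM. Upk3b, a uroplakin of mesothelium, stood at 149 and 342 CPM against 26.9 and 31.4 CPM. Fgf9, a growth factor that mesothelium is known to secrete, stood at 68.3 and 56.0 CPM against 6.71 and 8.50 CPM. Ezr, which ties actin to the apical membrane of epithelia, stood at 326 and 515 CPM against 72.5 and 70.2 CPM. Itm2a, a membrane protein, stood at 668 and 2457 CPM against 153 and 316 CPM. Further down the same list stood the adhesion molecule Alcam, the prion protein gene Prnp, the receptor kinase gene Epha4 and the lysophosphatidic acid receptor gene Lpar4.

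Lhx2 and Itm2a were as high in collectin-rich cells, and Upk3b and Fgf9 were low there. Cells with Foxf1, no Epcam and at least 3 UMIs of Colec10, Colec11 and Reln numbered 120 in the E10.5 library and 188 in the E11.5 library. In them Lhx2 stood at 257 and 248 CPM and Itm2a at 1144 and 2530 CPM, levels at or above those of the Barx1-Foxf1 cells. Upk3b stood there at only 42.1 and 56.0 CPM and Fgf9 at 5.76 and 8.84 CPM. Myl7 was lower at 86.0 and 161 CPM, and at 157 and 208 CPM in Barx1-Foxf1 cells left out by the collectin limit. In collectin-rich cells Lpar4 was higher, at 145 and 199 CPM against 90.6 and 151 CPM in Barx1-Foxf1 cells. Alcam (200 and 295 against 154 and 532 CPM) and Prnp (195 and 239 against 114 and 328 CPM) were higher there only at E10.5. Epha4 was lower, at 135 and 53.9 against 205 and 99.9 CPM. Barx1 itself was found in 12.5% and 67.6% of the collectin-rich cells. In Foxf1 cells without Barx1, Lhx2 stood at 45.4 and 2.75 CPM and Myl7 at 84.8 and 30.7 CPM. The collectin limit is part of the gate, so these levels describe where it cuts and are not tested.

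Of the marker lists of other cell types, most lay below the rest of the cells, and those of mesothelium, gonad and adrenal, and hepatic stellate precursors lay above. Of 11 markers of gut and liver epithelium, only Afp, Alb and Krt7 had a UMI. Epcam is held at 0 by the gate, and Cdh1, Foxa1, Foxa2, Cldn6, Sox2, Nkx2-1 and Pdx1 were at 0 in both libraries. Afp, a liver gene, was found in 17.8% and 54.8% of Barx1-Foxf1 cells. Endothelial-marker cells held it at similar shares, 20.6% and 60.8%, and Sox10 cells at 22.3% and 57.5%. These cells were deeper than the kept cells, with medians of 24508 and 26282 UMIs (endothelial-marker) and 25119 and 24172 UMIs (Sox10). The source of the Afp RNA was not tested. The 8 endothelial markers summed to 78.2 and 90.1 CPM against 321 and 274 CPM in other cells, and most of that was Egfl7 (59.6 and 85.3 CPM). Cldn5 and Esam had no UMI in either library. The 7 white blood cell markers summed to 3.72 and 10.96 CPM, the 6 muscle markers to 4.97 and 1.22 CPM and the 6 nephric markers to 12.4 and 7.31 CPM. The 8 neural crest markers summed to 48.4 and 73.1 CPM, with Sox10, Ret and Foxd3 at 0 in both libraries. The 5 sclerotome markers, with Pax1 held at 0 by the gate, summed to 64.6 and 32.9 CPM against 403 and 122 CPM, and the 8 erythroid markers to 454 and 348 CPM against 17070 and 13808 CPM.

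Of the 10 mesothelium markers, 8 were found in the E10.5 library and 9 in the other, and their sum of 586 and 903 CPM lay above the 257 and 319 CPM of other cells. Msln, a defining mesothelium gene, had no UMI in either library. The 6 gonad and adrenal markers summed to 299 and 252 CPM against 90.0 and 179 CPM, most of it Gata4 and Wnt4. The 8 hepatic stellate precursor markers summed to 253 and 258 CPM against 109 and 106 CPM, although the gate limits 3 of them (Colec10, Colec11 and Reln). Most of that sum was Lhx2, at 140 and 108 CPM, and Des, an intermediate filament gene, at 67.0 and 79.2 CPM. The part of such cells in the results was not tested.

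At E10.5 few Barx1-Foxf1 cells held Lhx2 and Nefm together. Lhx2 was found in 20 of 45 cells and Nefm, a neurofilament gene, in 18, and 4 cells had both. Another 11 cells had neither. Mesothelial and GATA genes were found on both sides, with Wt1 in 9, Upk3b in 8 and Gata4 in 7 of the 18 Nefm cells. These genes were chosen for the split after their values had been seen, and no test is attached to it. The median depth was 16049 UMIs in cells with Lhx2 and 17419 in cells without it, and 15974 with Nefm and 16342 without it.

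At E10.5 cells with Lhx2 differed in level from those without it in several genes. Gata4 was found in 20 of the 20 cells at 227 CPM (178 to 285), against 33.4 CPM (19.1 to 54.2) in the 25 cells without Lhx2. Wt1 stood at 239 against 75.1 CPM, and Myl7 at 571 against 150 CPM. Wnt4, a ligand of the gonad and kidney mesenchyme, stood at 307 against 95.9 CPM. Nr1h5, a nuclear receptor gene, stood at 199 against 31.3 CPM and was found in 18 of the 20 cells. Hgf, the hepatocyte growth factor, was found in 14 of the 20 cells and in 4 of the 25. Hlx stood at 135 against 62.5 CPM. Upk3b stood at 212 against 106 CPM, a smaller gap than for Gata4. Krt18 and Fgf9 were lower in the cells with Lhx2, Krt18 at 95.1 against 204 CPM and Fgf9 at 55.2 against 77.1 CPM.

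Cells with Nefm at E10.5 were richer in Barx1. Barx1 stood at 915 CPM in the 18 cells with Nefm and 242 CPM in the 27 without it, but 2 of the 18 cells held 104 and 60 of their 303 UMIs. Without those 2 cells, an alternative chosen after seeing the data, the level with Nefm was 552 CPM. The median over single cells was 4.70 UMIs of Barx1 per 10000 with Nefm and 1.97 without it. Nefl, another neurofilament gene, stood at 329 against 6.32 CPM and was found in 11 of the 18 cells and in 1 of the 27. Slit2, a guidance ligand, stood at 160 against 6.32 CPM. Igf1, an insulin-like growth factor, stood at 211 against 75.9 CPM. Tnc, tenascin C of the matrix, stood at 87.6 against 37.9 CPM and was found in 8 of the 18 cells and in 2 of the 27. Fgf9 stood at 130 against 25.3 CPM and Nr2f1 at 368 against 133 CPM. The reverse held for Myl7 (103 against 472 CPM), Wnt4 (48.3 against 274 CPM), Gata4 (45.3 against 158 CPM) and Itm2a (359 against 883 CPM).

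**Figure D3:**
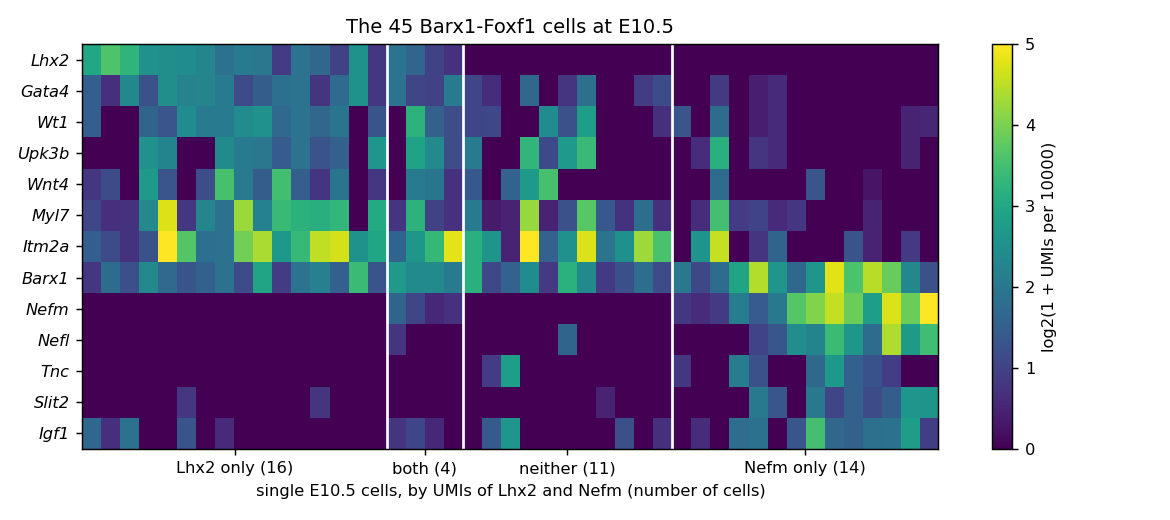
Each column is 1 of the 45 Barx1-Foxf1 cells at E10.5 and each row a gene, with colour giving log2(1 + UMIs per 10000), drawn as 5 where higher. White lines part the 16 cells with Lhx2 only, the 4 with both genes, the 11 with neither and the 14 with Nefm only: Gata4, Wt1, Myl7 and Itm2a are brighter on the left, and Barx1, Nefm, Nefl, Slit2 and Igf1 on the right.

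A further, smaller set at E10.5 carried Hand1, a factor of lateral plate and gut mesoderm. Hand1 was found in 13 of 45 cells, of which 4 had Lhx2 and 3 had Nefm. In these 13 cells Tcf21 stood at 148 CPM, and all 13 had it, against 37.3 CPM in the other 32 cells. Hand2 stood at 222 against 88.9 CPM and Cxcl12, a chemokine that holds blood stem cells, at 115 against 46.2 CPM. The few UMIs of Nkx2-5 were all in these cells (3 of 13 cells), and Barx1 was lower in them at 214 against 650 CPM (418 CPM without the same 2 cells of highest Barx1).

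At E11.5 too few cells held Nefm to show whether Lhx2 and Nefm parted the cells as at E10.5. Lhx2 was found in 25 of 42 cells and Nefm in 5, of which 2 had both. Gata4 stood at 174 CPM with Lhx2 and 115 CPM without it. Tnc had 2 UMIs in all 42 cells. The plainer divide at E11.5 ran along Upk3b, which was found in 26 of 42 cells. Krt18, a keratin of simple epithelia, stood at 154 CPM with Upk3b and 9.57 CPM without it. Fgf9 stood at 90.7 CPM in the 26 cells with Upk3b and had no UMI in the 16 without it. Myl7 stood at 743 against 95.7 CPM. On the other side, Cxcl12 stood at 27.6 CPM with Upk3b and 268 CPM without it. The Wnt antagonist gene Sfrp1 stood at 59.1 against 319 CPM. The Wnt enhancer gene Rspo3 stood at 108 against 383 CPM and Lhx2 at 49.3 against 204 CPM. At E10.5, where 23 of 45 cells held Upk3b, only some genes parted along it. Krt18 lay at similar levels on both sides at E10.5, and Fgf9 was lower with Upk3b. There Myl7 stood at 568 CPM with Upk3b and 69.9 CPM without it, Wnt4 at 326 against 34.9 CPM and Krt19 at 54.3 against 2.50 CPM. Nefm went the other way, with 123 against 696 CPM.

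Clustering of the 87 cells gave 3 groups that followed the libraries. Group 1 held 48 cells, 44 of them from E10.5. Group 2 held 21 cells, all from E11.5. Group 3 held 18 cells, 17 of them from E11.5. A coarser setting joined groups 2 and 3, and a finer one gave 6 groups. With 1 library per stage, a group that is mostly of 1 library may be that library, so sizes are not compared.

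Group 2 was mesothelium-like. Among its 10 leading genes were 4 fixed mesothelium markers: Upk3b at 645 CPM (568 to 729), Upk1b at 110 CPM, Krt19 at 189 CPM and Gpm6a at 76.4 CPM. The same genes stood at 120, 7.29, 24.3 and 4.86 CPM over the other groups together. Its leading genes also held the tetraspanin-like gene Tm4sf5 (326 against 17.0 CPM), the keratin genes Krt7 (196 against 7.29 CPM) and Krt14 (71.3 against 4.05 CPM), and Podxl, an anti-adhesive surface protein (240 against 34.0 CPM). Barx1, which the gate requires, stood at 1070 CPM in it. Fgf9 stood at 112 CPM and Lhx2 at 38.2 CPM (21.4 to 63.0). In 15 of the 21 cells there was 1 UMI of Colec10, Colec11 or Reln. Over all groups, the 8% of cells with the highest doublet scores in each library held 1 Barx1-Foxf1 cell of E10.5 and 7 of E11.5. These cells were not counted by group.

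Group 3 stays unnamed, since its leading genes held fewer than 3 markers of any fixed list. It was led by Kctd14, Rspo3, Col25a1, Pdzd2, the endothelin receptor gene Ednrb, Cdo1, the proteoglycan gene Bgn and the adhesion gene Vcam1. Rspo3 stood at 408 CPM (346 to 477) against 57.1 CPM over the other groups, and was found in 17 of 18 cells. Ednrb stood at 141 CPM (106 to 184) against 17.7 CPM. Lhx2 reached 206 CPM (163 to 257), Dlk1 2430 CPM and Cxcl12 152 CPM, while Upk3b stood at 39.2 CPM. Kctd14 was found in 5 of the 18 cells, and 1 of them held 50 UMIs. Both Ednrb and Rspo3 also stood high in the collectin-rich cells at E11.5, at 206 and 384 CPM. Of the 17 E11.5 cells of the group, 11 had 1 collectin or reelin UMI, so they sat at the edge of the gate.

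Group 1, nearly all E10.5, was led by Nefm (389 against 9.03 CPM), Nefl, Igf1, Hoxa5 (196 against 32.2 CPM), Cadm1 and Igdcc3. These genes also head the comparison of stages, since group 1 is close to the E10.5 library.

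**Figure D4:**
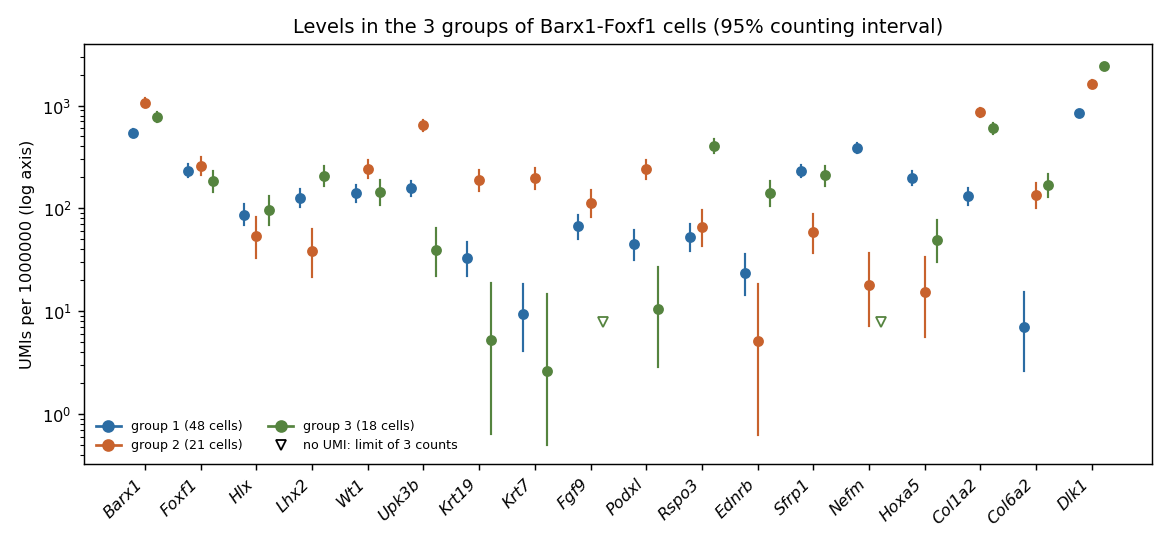
Level of 18 genes in the 3 groups, in CPM on a log axis, with 95% counting intervals; open triangles mark genes with no UMI at the limit of 3 counts. Upk3b, Krt19, Krt7 and Podxl stand highest in group 2, Lhx2, Rspo3, Ednrb and Dlk1 in group 3, and Nefm and Hoxa5 in group 1.

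Between the stages, matrix genes were higher at E11.5 and Hox genes lower. Of 4958 genes with at least 50 UMIs in both libraries together, 225 (4.54%) were at least 2-fold higher at E11.5 and 93 (1.88%) at least 2-fold lower. The median log2 ratio over all of them was 0.02. These counts move with the choice of cells and with the count minimum, as given at the end.

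Of 30 extracellular matrix genes, 17 were counted, 10 of them at least 2-fold higher and 1 at least 2-fold lower at E11.5, with a median log2 ratio of 1.63. The genes of collagen VI, a fine fibril that anchors cells, had the widest gaps. Col6a2 had 6 UMIs in 5 cells at E10.5 and 117 UMIs in 34 cells at E11.5, that is 7.45 CPM (2.73 to 16.2) and 142 CPM (118 to 171), a log2 ratio of 4.26 (3.09 to 5.73). Col6a1 stood at 17.4 and 158 CPM. The fibrillar collagen gene Col1a2 stood at 103 CPM (82.1 to 128) and 726 CPM (669 to 787), a log2 ratio of 2.82 (2.48 to 3.17). Col1a1 stood at 38.5 and 251 CPM, Col3a1 at 179 and 553 CPM and Col5a2 at 59.6 and 272 CPM. The small proteoglycan genes Lum (17.4 and 150 CPM) and Dcn (42.2 and 169 CPM) were higher as well. Vcan, a large proteoglycan gene, went the other way with 80.7 and 32.9 CPM.

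The matrix genes were also higher at E11.5 outside the gate. Over the same 17 genes the median log2 ratio was 0.83 in all other cells, with 5 genes at least 2-fold higher, 0.90 in Foxf1 cells without Barx1 and 1.16 in collectin-rich cells. It was 2.71 in the cells with Barx1 and Foxf1 that the collectin limit left out. Whether the gap between these medians exceeds the spread between embryos was not tested. Col6a2 stood at 7.73 and 25.8 CPM in other cells, so its level in Barx1-Foxf1 cells was close to theirs at E10.5 and above it at E11.5. Lum was at 49.6 and 47.5 CPM in all other cells, with no such gap between libraries. In collectin-rich cells, however, Lum stood at 35.0 and 405 CPM and Col6a2 at 55.4 and 217 CPM. In the cells left out by the collectin limit, Lum stood at 5.41 and 378 CPM and Col6a2 at 16.2 and 228 CPM. These gaps are therefore not particular to the kept cells.

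Of 39 Hox genes, which give cells their position along the body axis, 7 were counted and all 7 were lower at E11.5, 4 of them at least 2-fold, with a median log2 ratio of -1.60. Hoxa5, known from lung and stomach mesenchyme, stood at 210 CPM (179 to 244) in 30 of 45 cells at E10.5 and 28.0 CPM (17.8 to 42.0) in 13 of 42 cells at E11.5. Its log2 ratio was -2.90 (-3.60 to -2.27). Hoxa4 stood at 166 and 54.8 CPM, Hoxc4 at 99.3 and 20.7 CPM and Hoxc5 at 52.1 and 10.96 CPM. Hoxb2, Hoxb3 and Hoxb4 were lower by less than 2-fold, as for Hoxb2 with 122 and 96.2 CPM. Over these 7 genes the median log2 ratio was -1.02 in all other cells and -1.17 in collectin-rich cells. It was 0.00 both in Foxf1 cells without Barx1 and in the Barx1-Foxf1 cells left out by the collectin limit, where Hoxa5 stood at 136 and 168 CPM and at 54.2 and 31.2 CPM. Without the collectin limit the median in the kept cells was -0.76.

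**Figure D5:**
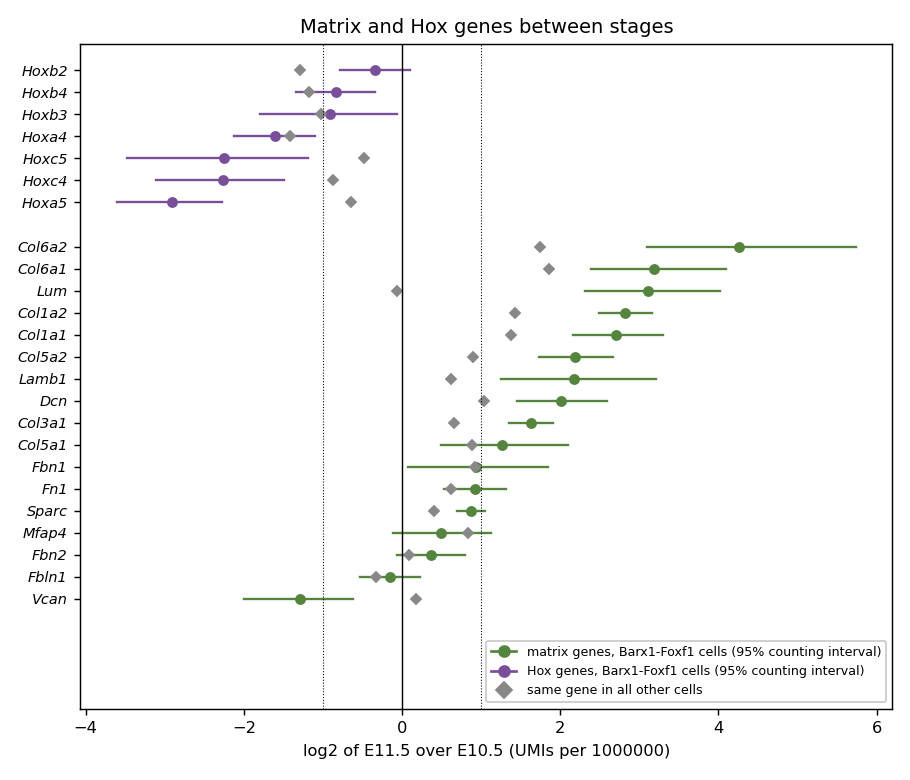
Log2 ratio of E11.5 over E10.5 for the 17 counted matrix genes (green) and 7 counted Hox genes (purple) in Barx1-Foxf1 cells, with 95% counting intervals, and the ratio of the same gene in all other cells (grey diamonds). Dotted lines mark 2-fold. Matrix genes from Col6a2 at 4.26 down to Col5a1 at 1.27 lie to the right of them, Vcan at -1.29 to the left, and Hoxa5 is lowest at -2.90.

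Other genes higher at E11.5 included Krt7, of simple epithelia, with 4.97 and 99.9 CPM. At E10.5 it was found in 1 cell, and at E11.5 in 20 of 42. Tm4sf5 stood at 17.4 and 164 CPM. Of the 10 mesothelium markers 6 were counted, with a median log2 ratio of 0.81. Without the mesothelium-like group 2, Krt7 had a log2 ratio of 1.23, Tm4sf5 of -0.089 and the mesothelium markers a median of -1.18. Group 2 was clustered on these same genes and holds E11.5 cells alone, so lower values without it follow from how it was formed. For Col6a2 and Col1a2 the log2 ratios over all alternatives ran from 3.58 to 4.33 and from 2.38 to 2.94. The range was wider for Lum (2.08 to 4.55) and Adamts19 (1.38 to 5.24). Gucy1a1, a subunit of the nitric oxide receptor, stood at 12.4 and 150 CPM, Nrk, a kinase gene, at 74.5 and 434 CPM and Adamts19, a metalloprotease gene, at 2.48 and 63.3 CPM. Rhox5, a homeobox gene, stood at 6.21 and 74.3 CPM. Kctd14, with 57 UMIs at E11.5, came from 6 cells, 1 of which held 50 of them, and it stood at 207 CPM in all other cells there. Without that cell its level at E11.5 was 8.84 CPM in place of 69.4 CPM. Its log2 ratio of 4.22 was 1.499 without the cells of highest doublet score.

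Of the genes that stood higher in the Nefm cells at E10.5, Nefm, Nefl, Slit2, Igf1 and Tnc were lower at E11.5. Fgf9 (68.3 and 56.0 CPM) and Nr2f1 (230 and 140 CPM) lay within 2-fold, and Barx1 itself was higher. Nefm stood at 408 CPM (365 to 455) in 18 cells at E10.5 and 10.96 CPM (5.01 to 20.8) in 5 cells at E11.5. Its log2 ratio was -5.22 (-6.36 to -4.28). A single E10.5 cell held 126 of the 329 UMIs of Nefm at that stage, a weight that the counting interval does not cover. Nefl stood at 139 and 7.31 CPM, Slit2 at 69.5 and 8.53 CPM, and Igf1 at 132 and 24.4 CPM. Nefm and Nefl were also present outside the gate at both stages. In all other cells Nefm stood at 235 and 179 CPM and Nefl at 93.6 and 87.7 CPM. In Foxf1 cells without Barx1, Nefm stood at 346 and 215 CPM and Nefl at 145 and 113 CPM. The log2 ratio of Igf1 ran from -3.88 to -1.65 over the alternatives and that of Nefm from -6.45 to -3.59. In other cells Igf1 went the other way, with 37.4 and 84.7 CPM. Hand1 had 50 UMIs in 13 cells at E10.5 and none at E11.5, or 17.0-fold lower with the zero read as 3 counts. The log2 ratio of Hand1 was -4.09 on that reading, with an upper counting bound of -3.73. It ran from -6.38 to -1.96 over the alternatives. Hand1 was found in 58.3% (E10.5) and 12.2% (E11.5) of the Barx1-Foxf1 cells left out by the collectin limit. Igdcc3 stood at 104 and 7.31 CPM, with a like gap in other cells (132 and 12.9 CPM). Nr1h5 stood at 99.3 and 17.1 CPM, and its log2 ratio of -2.54 became -0.06 without the collectin limit. Cadm1, an adhesion gene, stood at 86.9 and 8.53 CPM, Dpysl3 at 74.5 and 8.53 CPM and the muscle enolase gene Eno3 at 159 and 26.8 CPM. Gm47283, a gene without a name, stood at 114 and 12.2 CPM, close to the 118 and 22.6 CPM of other cells.

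Among the 17 counted transcription factors only Tcf21, of visceral and spleen mesenchyme, was at least 2-fold higher at E11.5, with 70.8 CPM (53.6 to 91.7) in 21 cells and 147 CPM (122 to 176) in 34. Hand1 was 1 of the 2 that were at least 2-fold lower. The median log2 ratio of the list was -0.37. Of the 28 Wnt genes 10 were counted, 2 higher by at least 2-fold and 1 lower. The ligand gene Wnt11 stood at 13.7 and 79.2 CPM and Rspo3 at 64.6 and 213 CPM, while Wnt4 stood at 181 and 90.1 CPM. Sfrp1 (211 and 158 CPM) and the receptor gene Fzd2 (110 and 105 CPM) lay within 2-fold.

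Hedgehog genes were at similar levels at both stages. The receptor gene Ptch1 stood at 37.2 and 49.9 CPM, the transducer gene Smo at 84.4 and 95.01 CPM and the coreceptor gene Gas1 at 146 and 147 CPM. Of the 14 Hedgehog genes these 3 were counted and none was past 2-fold. Of 19 BMP genes 8 were counted, and Bmpr2, a receptor gene, was at least 2-fold higher (28.6 and 63.3 CPM). Among 14 FGF genes 4 were counted, and Spry1, an inhibitor of FGF signals, was at least 2-fold lower (58.3 and 14.6 CPM). Fgf9 stood at 68.3 and 56.0 CPM. None of the 5 counted retinoic acid genes was past 2-fold, and Aldh1a2, which makes retinoic acid, stood at 39.7 and 17.1 CPM with 46 UMIs in all, against 121 and 150 CPM in other cells.

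Blood niche and growth factor genes gave a mixed picture, with 8 of 15 counted, 2 at least 2-fold higher and 1 lower. Dlk1, a membrane-bound inhibitor of differentiation, stood at 853 CPM (790 to 919) and 1955 CPM (1860 to 2053). Igf2 stood at 21.1 and 49.9 CPM, and Igf1 was the lower one. Kitl, the stem cell factor, stood at 90.6 and 49.9 CPM. Cxcl12 stood at 67.0 and 119 CPM, below the 337 and 257 CPM of other cells. Angpt1 had 21 UMIs at E10.5 and none at E11.5. Thpo had no UMI in either library.

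Acta2 and Tagln, early genes of the contractile apparatus, lay below the other cells. Acta2, smooth muscle actin, stood at 27.3 and 64.6 CPM against 463 and 472 CPM, and Tagln at 50.9 and 70.7 CPM against 439 and 317 CPM. Myh11, the defining myosin of mature smooth muscle, had no UMI at E10.5 and 1 UMI at E11.5. The 14 smooth muscle genes together summed to 922 and 1800 CPM against 2210 and 2116 CPM, so the list as a whole lay nearer to the other cells than Acta2 did. Of these 14 smooth muscle genes 6 were counted, 3 of them at least 2-fold higher at E11.5, with a median log2 ratio of 1.11. That median was -0.11 when a single UMI of Barx1 was enough for the gate. Of 15 cholesterol synthesis genes 11 were counted and 3 were at least 2-fold lower, with Fdft1 at 99.3 and 37.8 CPM. Their median log2 ratio of -0.49 stood beside -0.65 in all other cells. It was 0.33 after thinning, where 2 of the genes were counted.

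Cell cycle genes did not separate the stages. All 16 S phase genes and all 15 G2 and M phase genes were counted, none was past 2-fold, and the medians of log2 ratios were 0.04 and -0.01. None of the 13 counted glycolysis genes was past 2-fold (median 0.28). The 4 counted heterochronic genes, which mark embryonic age, were within 2-fold, as for Hmga2 with 1154 and 1329 CPM. Of 9 counted genes of the response to dissociation 1 was at least 2-fold higher, and the list's sum was 1627 and 1574 CPM, below the 2228 and 2081 CPM of other cells.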

How the data were processed

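Per the labels' protocols, tissues were dissociated with collagenase/dispase and trypsin, and libraries were made with the version 3.1 10x 3' kit. Per the submitters' processing notes, Cell Ranger 5.0.0 and the mm10 (GRCm38) build were used. The authors deposited whole-number UMI counts per gene and barcode (10996 and 12289 barcodes, 151474708 and 159619785 UMIs). No doublet removal is stated. Scrublet's automatic threshold marked 0% of cells, so doublets were kept, and removing the 8% with the highest scores was an alternative.

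Barcodes needed at least 2000 UMIs, 500 genes and at most 10% mitochondrial UMIs. Counts were summed over kept cells and given as CPM. A zero was read against 3 counts. Positions are from mouse GENCODE release M21. Groups came from Leiden clustering (scanpy 1.11.5, resolution 0.5, 20 principal components, 15 neighbours). Intervals are exact Poisson (CPM), Clopper-Pearson (shares) and conditional (ratios). Only the ratio interval was run on simulated data, drawn as the Poisson counts it assumes, so spread between cells was not tested. Between stages the 12 genes each way whose interval bound lay furthest from 0 were named (at least 50 CPM in 1 library), over other cells the first 25, per group the first 10, and any member of the 32 fixed lists as an example. The gate, members and lists were chosen with earlier results of these data known. Genes that split cells were chosen after their values were seen. A few genes of the lists are not reported here.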

Additional observations from a re-analysis of the deposited data

How the results depend on the processing

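Each stage was 1 library, and no stage difference was tested against the spread between embryos. Few UMIs per gene limit all statements on single genes. No paired analysis was possible because each stage has 1 library.

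The share at E10.5 moved from 0.587% to 0.965% with Barx1 at 1 or more UMIs, 0.887% without Foxf1, 0.861% without the Epcam and Pax1 limits and 0.248% after thinning. The share at E11.5 moved from 0.472% to 0.640% without Foxf1 and 1.85% without the collectin limit. The ratio of shares moved from 0.80 to 2.49 without that limit and 1.92 after thinning.

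The 225 higher and 93 lower genes became 1148 and 1107 with only 1 UMI needed in each library, 32 and 10 with 200 UMIs, and 46 and 31 after thinning. With 2 alternatives chosen after seeing the data, they became 652 and 170 without the collectin limit and 147 and 140 without group 2. The lower genes numbered 145 with Barx1 at 1 or more UMIs. Fewer or more genes were counted under these settings (1395 to 11688 in place of 4958). Resolution 1.0 gave 6 groups. The smooth muscle median reversed to -0.11 with Barx1 at 1 or more UMIs, and Tm4sf5 to -0.089 without group 2. The cholesterol synthesis median changed sign to 0.33 after thinning (2 genes counted) and the mesothelium median to -1.18 without group 2. The matrix median stayed between 1.23 and 1.99 and the Hox median between -1.93 and -0.76 over all alternatives that gave one.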
